A study of Sus scrofa with 8 samples.

Results

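The fast fibre contractile genes described here encode parts of the contraction machinery of skeletal muscle, most in the form fast-twitch fibres use. They were found by symbol, from the authors' m6A peak lists or else from an Ensembl name table, and 8 were looked for. The choice was made with earlier results of these data known. A row in the expression table was found for 6, out of 22676 gene IDs in all: ACTA1, MYH2, MYBPC2, MYLPF, TNNC2 and ATP2A1. The troponin genes TNNI2 and TNNT3 matched no row and were not analysed here. All 6 passed a filter of a mean of at least 1 FPKM over the input libraries, MYH2 through a single library, as its values below show. FPKM counts the sequenced fragments of a gene, divided by the gene's length and by the mapped fragments of the library.

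Adipose tissue came from 2 Jinhua pigs, a breed described as fatty, and 2 Landrace pigs, described as leaner, all of them males 180 days old. Each animal gave an input library of mRNA and a library pulled down with an antibody against N6-methyladenosine (m6A), a methyl mark on adenosines of RNA, so that the data comprised 4 input and 4 immunoprecipitation (IP) libraries. The animals are called Jinhua 1, Jinhua 2, Landrace 1 and Landrace 2 after the replicate numbers in the labels. No treatment or genetic change was named in the labels, and muscle columns of the same table were not analysed here.

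In skeletal muscle, thick filaments of myosin pull on thin filaments of actin when calcium binds to troponin, and a calcium pump of the sarcoplasmic reticulum then ends the contraction. Fast and slow fibres build the same machine from different genes, so that most fast proteins have a slow partner. Adipocytes are not known for these muscle proteins, and the genes serve as markers of skeletal muscle fibres.

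The labelled tissue was checked against 12 adipocyte markers found in the table. PLIN1, a lipid droplet coat protein, had 1764 and 2370 FPKM in the Jinhua animals and 5317 and 2957 FPKM in the Landrace animals. FASN, fatty acid synthase, and SCD, a fatty acid desaturase, had at least 1049 FPKM in every library. Landrace 2 was the highest library for 0 of the 12 markers and the lowest for 4. The expression values are not depths: their sums over genes lay between 1540220 and 4143540 FPKM, of which 1 gene ID alone held 40.1% to 73.8%. Read numbers were not given, so the depth is unknown.

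Every one of the 6 genes had its highest level in Landrace 2, between 9.27 and 31.0 times the next library. The other 3 animals lay close to each other, with the highest of the 3 between 1.49 and 2.83 times the lowest. This comparison sets 1 library against others and has no replicate check. Without Jinhua 2 the ratio was 17.2 for MYBPC2, 27.0 for TNNC2 and 47.7 for MYLPF, each over 1.5 times as large, and with a pseudocount of 1 that of MYH2 was 5.28. Landrace 2 was the highest of the 4 libraries for 15.5% of the 13693 tested genes. MYH2 passed the filter only through that library, so its place there was bound to be high.

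ACTA1 is the thin filament actin of fast and slow skeletal muscle fibres alike. It had 38.6 FPKM in Jinhua 1, 72.2 in Jinhua 2, 50.6 in Landrace 1 and 1511 in Landrace 2. Landrace 2 was far above the others, and Landrace 1 lay between the Jinhua animals. By level within a library ACTA1 ranked 2742, 1555, 2109 and 89 among all gene IDs, in the same order of animals.

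MYH2, a fast myosin heavy chain and thus the motor of the thick filament, had 0.647 FPKM in Jinhua 1, 0.964 in Jinhua 2, 0.854 in Landrace 1 and 9.37 in Landrace 2. It was the lowest of the 6 genes in every library, and without Landrace 2 it would not have reached 1 FPKM. Myosin heavy chain genes are close copies of each other, and reads they share could be split between them in ways the deposited values do not show. MYBPC2, the fast form of myosin-binding protein C, which holds to the thick filament, had 1.31 FPKM in Jinhua 1, 2.42 in Jinhua 2, 1.02 in Landrace 1 and 22.4 in Landrace 2. Landrace 1 was here the lowest animal and Landrace 2 the highest.

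MYLPF, the regulatory light chain of fast myosin, had 10.7 FPKM in Jinhua 1, 16.5 in Jinhua 2, 5.83 in Landrace 1 and 511 in Landrace 2. It had the largest gap of the 6 genes, 31.0 times between Landrace 2 and Jinhua 2 and 87.7 times between the Landrace animals. TNNC2, the calcium-binding troponin C of fast fibres, had 18.3 FPKM in Jinhua 1, 28.2 in Jinhua 2, 10.5 in Landrace 1 and 493.8 in Landrace 2, with the same order of animals as MYLPF. ATP2A1, the fast fibre calcium pump known as SERCA1, had 1.16 FPKM in Jinhua 1, 2.42 in Jinhua 2, 2.70 in Landrace 1 and 42.5 in Landrace 2. ATP2A1 was the only 1 of the 6 whose Landrace values both lay above the Jinhua values.

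**Figure D1:**
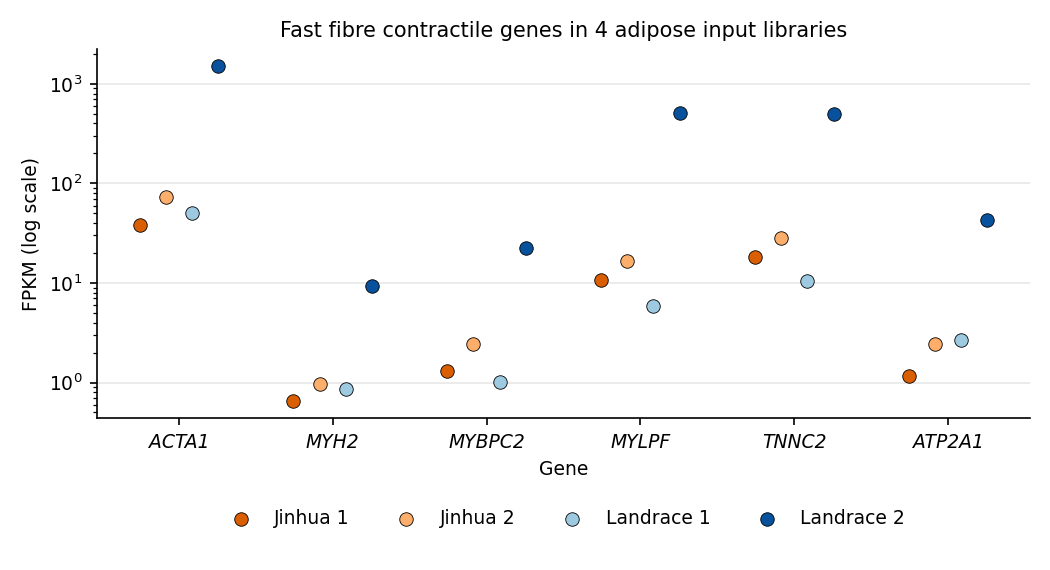
Level of the 6 fast fibre genes in the 4 adipose input libraries, in FPKM on a log axis, 1 point per animal. For each gene the Landrace 2 point stands alone at 9.27 to 31.0 times the next, while the other 3 animals lie within 2.83 times of each other.

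Among the 3 lower animals only the order of the Jinhua animals was common to all 6 genes. Jinhua 2 exceeded Jinhua 1 for 6 of 6 genes, by 1.49 times for MYH2 to 2.09 times for ATP2A1, where 42.7% of all tested genes had this order. Jinhua 2 was the next library after Landrace 2 for 5 genes, and Landrace 1 for ATP2A1. Landrace 1 lay below both Jinhua animals for MYBPC2, MYLPF and TNNC2, and this held for 48.3% of all tested genes.

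The order of the 6 genes by level was nearly the same in the high and the low libraries, while their shares of the sum moved. Summed over the 6 genes the level was 70.7 FPKM in Jinhua 1, 122.7 in Jinhua 2, 71.6 in Landrace 1 and 2590 in Landrace 2. ACTA1 held 54.6%, 58.9%, 70.7% and 58.3% of these sums, in the same order of animals. MYLPF held 15.2%, 13.4%, 8.14% and 19.7%, and TNNC2 held 25.8%, 23.0%, 14.7% and 19.1%. MYH2 held 0.915%, 0.786%, 1.19% and 0.362%, lowest in Landrace 2. MYLPF and TNNC2 together with ACTA1 were the top 3 genes of the 6 in every library, and TNNC2 stood above MYLPF in all except Landrace 2, where MYLPF was slightly higher. Across the 6 genes, which are not independent replicates, log2 FPKM of Landrace 2 correlated with that of Jinhua 1 at r = 0.984, of Jinhua 2 at r = 0.987 and of Landrace 1 at r = 0.950. The libraries share the gene models and the normalization, and with 6 genes of such different levels these values are a description that does not show the moves of the shares.

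The breed comparison asked whether the genes differed in level between Jinhua and Landrace adipose tissue. In adipose tissue as a whole, fewer cells of a type and less RNA per cell cannot be told apart. All 6 genes had lower values in Jinhua by the fitted log2 difference, as 42% of all tested genes had. In limma 0 of 6 passed an adjusted p under 0.05 (Benjamini-Hochberg over all tested genes), where 0.0365% of all tested genes were called in either direction, 0.0146% higher and 0.0219% lower in Jinhua. At an unadjusted p under 0.05 the count was also 0 of 6, against 3.87% of tested genes called lower. Only ATP2A1 had groups that did not overlap, lower in Jinhua, as 18.1% of all tested genes had, while 0 of 6 had groups apart and higher in Jinhua, against 30.2% of all tested genes.

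ACTA1 averaged 55.4 ± 23.7 FPKM in Jinhua and 781 ± 1033 FPKM in Landrace (mean ± SD, n = 2 each). The limma difference, Jinhua minus Landrace on the log2(FPKM + 1) scale, was -2.37 with an SE of 1.70 and an adjusted p of 0.566. ATP2A1 averaged 1.79 ± 0.890 FPKM in Jinhua and 22.6 ± 28.1 FPKM in Landrace, with a difference of -2.23, an SE of 1.25 and an adjusted p of 0.525 in limma. MYLPF averaged 13.6 ± 4.08 FPKM in Jinhua and 258.3 ± 357.0 FPKM in Landrace. The SD of the Landrace pair exceeded its mean for each of these 3 genes.

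TNNC2 averaged 23.2 ± 7.02 FPKM in Jinhua and 252.1 ± 341.7 FPKM in Landrace (n = 2). MYBPC2 averaged 1.86 ± 0.786 FPKM in Jinhua and 11.7 ± 15.2 FPKM in Landrace, and MYH2 averaged 0.806 ± 0.224 FPKM in Jinhua and 5.11 ± 6.02 FPKM in Landrace. Over the 6 genes the limma adjusted p lay between 0.525 and 0.695, and the median log2 difference was -1.86, beside 0.15 over all tested genes. The differences did not exceed the spread between the 2 Landrace animals, and a p that misses the threshold does not show equal levels.

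The breed difference rested on Landrace 2. Without it the log2 difference was 1.07 for MYLPF, 1.04 for TNNC2, 0.48 for MYBPC2 and 0.061 for ACTA1, so that 4 of 6 genes turned to the other sign. MYH2 then had -0.043 and ATP2A1 had -0.45. The median over the 6 genes was 0.27, beside 0.23 over all tested genes, and the limma adjusted p lay between 0.292 and 0.950. Here the lone Landrace animal is assumed to vary like the Jinhua pair. Without Landrace 1 the differences ran from -2.53 for MYH2 to -5.16 for MYLPF, again with no gene called.

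**Figure D2:**
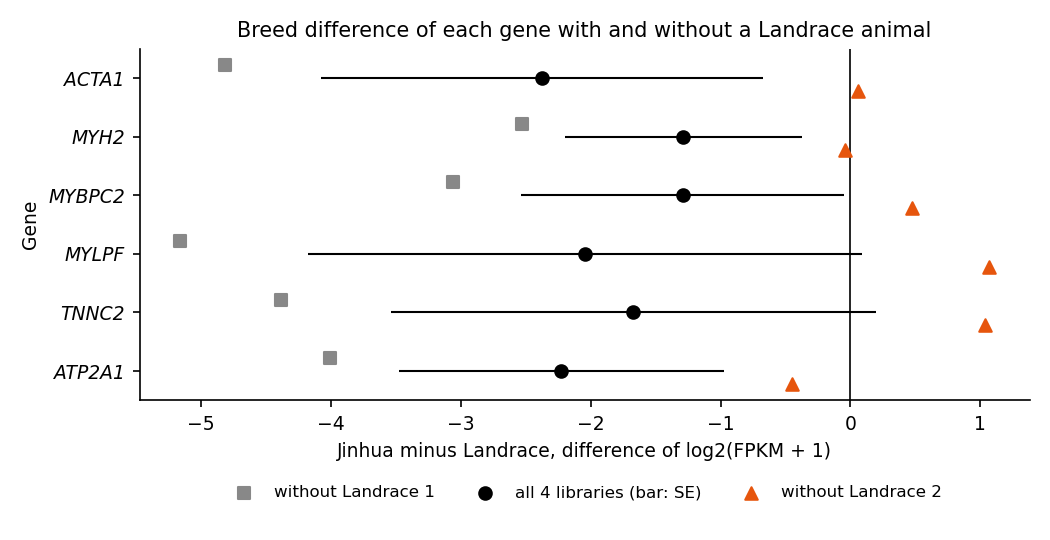
Jinhua minus Landrace difference of log2(FPKM + 1) for each gene, from limma with all 4 libraries (circle, with its standard error as a bar), without Landrace 1 (square) and without Landrace 2 (triangle). All 6 circles lie left of 0, and 4 of the 6 triangles lie right of it, the largest at 1.07 for MYLPF.

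Other skeletal muscle genes stood out in the same library. In Landrace 2, 80 tested genes reached at least 5 times the next library, where that library was above 0, which is 0.587% of them. The same held for 72 genes (0.528%) in Jinhua 1, 13 (0.0951%) in Jinhua 2 and 89 (0.653%) in Landrace 1. All 6 fast fibre genes were among the 80 of Landrace 2, and none of the 6 was in the other sets. By this ratio MYLPF had rank 10 and MYBPC2 rank 56, the highest and the lowest of the 6. Only 55 of the 80 genes had a symbol, and a gene without a symbol could not match a list. Of the 80 genes 30 (37.5%) stood on the lists of fast, slow, shared sarcomere and glycolytic muscle genes, the 6 genes included. These 30 are 69.8% of the 43 tested genes of those lists. The 6 genes and the lists were chosen with earlier results of these data known, so such counts are a description and no test. Of those 43 genes, 11 averaged under 1 FPKM in the other 3 animals and so passed the filter only through Landrace 2, where they were bound to be high. With the filter set on the other 3 animals alone, a choice made after seeing the data, 42 genes (0.31%) were at least 5 times the next library in Landrace 2, among them 5 of the 6 fast fibre genes, all except MYH2. Of these 42 genes 20 (47.6%) stood on the muscle lists, which is 62.5% of the 32 list genes under that filter. Here too a gene without a symbol could not match a list. Counted in this way the other animals had 53, 6 and 59 such genes (Jinhua 1, Jinhua 2 and Landrace 1).

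Of 11 other fast fibre genes looked for, 8 were tested, and all 8 had their highest level in Landrace 2, and 6 reached at least 5 times the next library. PVALB, RYR1 and MYLK2 were tested only through Landrace 2, and without them the counts were 5 of 5 and 4 of 5. MYL1, a fast myosin light chain, had 4.82 and 5.49 FPKM in the Jinhua animals and 0.889 and 201.9 FPKM in the Landrace animals. CASQ1, the calcium store protein of fast fibres, had 1.35 and 2.33 FPKM in Jinhua and 1.65 and 39.4 FPKM in Landrace. The heavy chain gene MYH1, which lies beside MYH2 in RefSeq's Sscrofa11.1 annotation, had 1.45 and 2.08 FPKM in Jinhua and 1.52 and 33.7 FPKM in Landrace. TPM1, a tropomyosin gene that smooth muscle and other cells use too, was only 1.20 times the next library. In limma 0 of the 8 were called (median log2 difference -1.49, lowest adjusted p 0.528).

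Slow fibre genes were highest in Landrace 2 as well. The median ratio to the next library was 16.6 for the 6 fast genes, which include ACTA1 of both fibre types. It was 22.9 for the 7 slow genes tested, of which 7 reached at least 5 times. Without MYH2 and MYBPC1, tested only through Landrace 2, the medians were 17.5 for 5 fast genes and 20.8 for 6 slow genes. In limma 0 of the 7 were called (median log2 difference -1.85, lowest adjusted p 0.537). MYL2, the slow regulatory light chain, had 2.19 and 6.05 FPKM in the Jinhua animals and 1.42 and 161.7 FPKM in the Landrace animals. TNNT1, slow troponin T, had 7.48 and 8.60 FPKM in Jinhua and 7.31 and 87.5 FPKM in Landrace. The difference between the fast and the slow ratios was not tested, since it stands on a single library.

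Of 11 tested sarcomere genes of both fibre types, 11 were highest in Landrace 2 and 8 reached at least 5 times the next library. LDB3, CSRP3, MYOT, NEB, LMOD2 and TRDN were tested only through Landrace 2, and without them 5 of 5 were highest there, 2 of 5 reached at least 5 times, and the median ratio was 4.95. TCAP, the titin cap, had 3.88 and 6.15 FPKM in the Jinhua animals and 4.78 and 96.7 FPKM in the Landrace animals. DES, the muscle intermediate filament desmin, was 4.95 times the next library, and TPM2, another tropomyosin, 1.30 times. In limma 0 of these 11 were called (median log2 difference -1.06). Among genes of glycogen breakdown and glycolysis 3 of 11 reached at least 5 times, the median ratio was 1.01, and 0 were called. ENO3, the muscle enolase, had 9.58 and 13.7 FPKM in Jinhua and 7.61 and 245.0 FPKM in Landrace. The abundant GAPDH, TPI1 and PKM, glycolytic enzymes of most tissues, were lower in Landrace 2 than in the highest other library, with ratios of 0.518, 0.510 and 0.770.

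Markers of other cell types were mixed. Smooth muscle genes were at a median of 0.508 times the highest other library in Landrace 2, with 0 of 6 highest there. Adipocyte markers were at 0.585 times, with 0 of 12. Most genes fall below 1 by this ratio, as Landrace 2 was highest for 15.5% of all tested genes. Landrace 2 lay within the range of the other animals for 5 of 6 smooth muscle genes and 8 of 12 adipocyte markers. Of the satellite cell and myoblast markers, MYF5 was listed at 0 in all 4 libraries and 4 of the 6 found, MYF5 included, were below 1 FPKM in every library. The other 2, MYF6, a myogenic factor that mature fibres use too, and DES, were highest in Landrace 2, with 4.82 FPKM for MYF6 against at most 0.110 in the other animals, so that MYF6 passed the filter only through Landrace 2. Of the cardiac markers, NPPB was listed at 0 in all 4 and 3 of the 5 found were below 1 FPKM in every library, while MYH6 and ACTC1 were 5.72 and 3.92 times the next library in Landrace 2, through which alone both passed the filter. Both have close skeletal copies, MYH7 and ACTA1, with which reads can be shared. Of 4 blood markers 1 was highest in Landrace 2, and the median ratio was 0.645. That 1 was HBB, a haemoglobin chain, with 1029 and 479.5 FPKM in the Jinhua animals and 304.8 and 1146 FPKM in the Landrace animals, 1.11 times the next library. The summed level of the 7 slow fibre genes was 25.5 and 28.3 FPKM in the Jinhua animals and 19.1 and 581.5 FPKM in the Landrace animals. The part of muscle tissue in the Landrace 2 values was not tested.

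**Figure D3:**
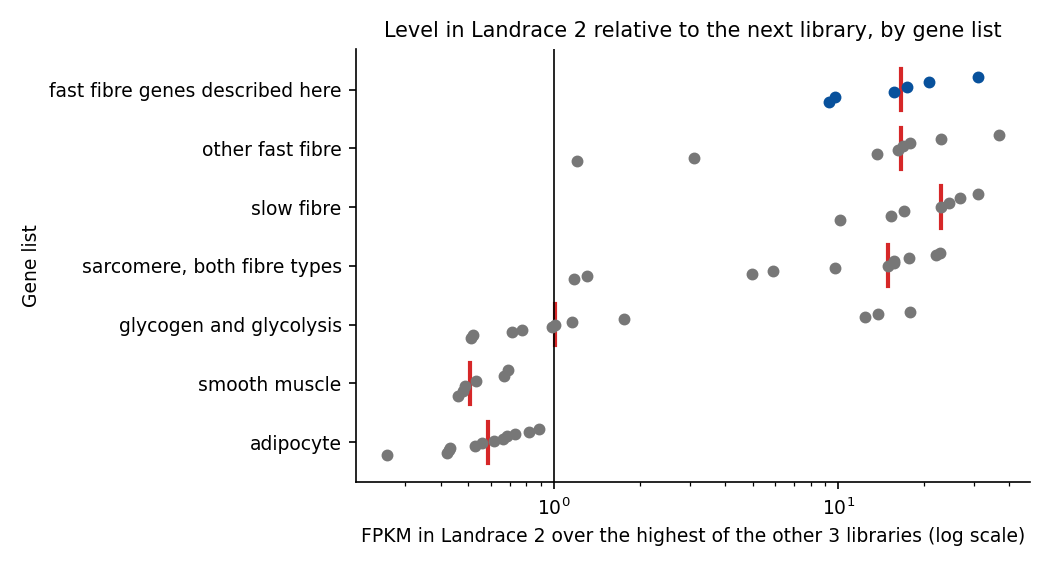
FPKM in Landrace 2 over the highest of the other 3 libraries on a log axis, 1 point per tested gene, by gene list, with the list median as a red line. The 6 fast fibre genes (9.27 to 31.0, median 16.6) lie among the other fast, slow and sarcomere genes, while smooth muscle (median 0.508) and adipocyte genes (0.585) lie below 1. Most genes fall below 1 by this ratio, as Landrace 2 was highest for 15.5% of all tested genes. Genes that passed the filter only through Landrace 2, 11 of the 43 on the muscle lists, are drawn too.

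Among tested genes with a symbol, those whose profile over the 4 input libraries came nearest to the mean profile of the 6 were sought. The distance was Euclidean, on centred log2(FPKM + 1) values. Genes without a symbol were left out, so nearer profiles among them would not show. Of the 10 nearest, 9 were muscle genes on the lists: TCAP (distance 0.27), CASQ1 (0.31), ENO3 (0.36), MYH1 (0.44), MYOZ1 (0.49), PGAM2 (0.55), MYL3 (0.59), TNNI1 (0.61) and TNNC1 (0.68). MYOZ1 encodes a fast fibre protein of the Z disc, and PGAM2 the muscle phosphoglycerate mutase. The remaining 1, the small nucleolar RNA SNORA46, was at 23.5 FPKM in Landrace 2 and listed at 0 in the other animals. The 6 genes themselves lay at distances of 0.70 for ATP2A1 to 1.44 for MYH2 from their own mean. The profiles cover 4 libraries, 1 of which holds nearly all of the variation.

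Fast genes and their slow partners could be set side by side per length in 4 of 7 pairs. In 3 pairs the fast gene was higher in every library. TNNC2 had 18.3, 28.2, 10.5 and 493.8 FPKM in Jinhua 1, Jinhua 2, Landrace 1 and Landrace 2, against 8.12, 7.15, 3.85 and 138.5 FPKM for slow troponin C, TNNC1. The fast share of the pair's FPKM was 69.2%, 79.8%, 73.3% and 78.1% in the same order, so the high library lay within the range of the others.

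MYLPF held 83.0% and 73.1% of its pair with MYL2 in the Jinhua animals and 80.4% and 75.9% in the Landrace animals. MYBPC2 held 75.9% and 87.2% of its pair with MYBPC1, the slow myosin-binding protein C, in the Jinhua animals and 84.3% and 70.2% in the Landrace animals. Landrace 2 was the lowest for MYBPC2 in these shares and neither highest nor lowest for MYLPF. The heavy chain pair had the other order, as MYH2 held 10.5% and 27.0% in the Jinhua animals and 24.9% and 9.97% in the Landrace animals, against MYH7, the slow heavy chain. MYH7 had 5.53 and 2.60 FPKM in Jinhua and 2.58 and 84.6 FPKM in Landrace. MYH2 is 1 of several fast heavy chains, and MYH1 in Landrace 2 was at 33.7 FPKM. For MYBPC2 and MYH2 the low libraries had values near or under 1 FPKM, and their shares moved with a pseudocount. With 1 FPKM added to each gene the MYBPC2 shares were 62.0% and 71.6% in the Jinhua animals and 62.9% and 69.0% in the Landrace animals, so that Landrace 2 was no longer the lowest. The MYH2 shares were then 20.1% and 35.3% in Jinhua and 34.1% and 10.8% in Landrace. Those of MYLPF moved too, to 78.6% and 71.3% in Jinhua and 73.8% and 75.9% in Landrace.

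**Figure D4:**
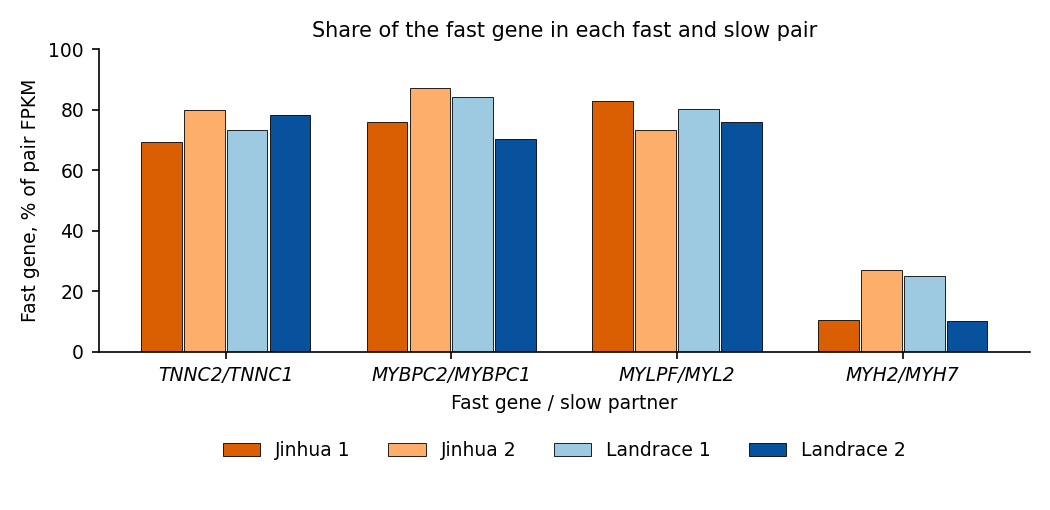
Share of the fast gene in the summed FPKM of a fast and slow pair, in percent, 1 bar per animal. The fast gene holds 69.2% to 87.2% in the TNNC2, MYBPC2 and MYLPF pairs and 9.97% to 27.0% in the MYH2 pair.

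The m6A peaks of the 6 genes were nearly all listed in the IP library of Landrace 2. The lists held 25 peaks on the 6 genes: 1 in Jinhua 1, 3 in Jinhua 2, 0 in Landrace 1 and 21 in Landrace 2. The number of genes with a peak was 1, 3, 0 and 5 in the same order, while 63.6%, 53.6%, 35.02% and 59.2% of all tested genes had one. The lists held 20688 peaks in all in Jinhua 1, 16116 in Jinhua 2, 8909 in Landrace 1 and 19039 in Landrace 2. The lists give no fold, score or read number, and the part of level and depth in a missing peak was not tested.

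All 25 peaks, 21 of them from Landrace 2, lay in coding sequence as the lists annotate it, where 71.7% to 73.6% of all peaks in the 4 lists did. In Landrace 2 this also held for all 29 peaks on other fast fibre genes and all 16 on slow fibre genes. It held there for 19 of 22 peaks on sarcomere genes of both fibre types and 19 of 26 on genes of glycogen breakdown and glycolysis. Their widths ran from 100 to 221 bases with a median of 154. Positions are given in bases from the start of the transcript the lists name, which puts an ACTA1 peak at base 1 in coding sequence. The length of the transcripts and the extent of their noncoding ends were not used here. The part of the gene models in the share of coding peaks was not tested.

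MYH2 carried 8 peaks in Landrace 2, at 2941 to 3095, 3366 to 3517, 3560 to 3713, 4106 to 4260, 4667 to 4820, 4988 to 5141, 5219 to 5330 and 5351 to 5499 of ENSSSCT00000019597. They covered 46.3% of the 2559 bases between the first start and the last end, and none was listed before base 2941. Of all genes with peaks in that library 1.84% had 8 or more. MYH2 had 9.37 FPKM in its input, the lowest level of the 6. The neighbour MYH1 had 7 peaks between 1498 and 4356 of its own transcript, and the slow MYH7 had 9 between 2536 and 5803, both in Landrace 2 only. Reads shared by these close copies could bear on their peaks too.

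ATP2A1 carried 6 peaks in Landrace 2, at 53 to 206, 618 to 774, 1749 to 1902, 2071 to 2232, 2233 to 2393 and 2541 to 2658 of ENSSSCT00000008553. The fourth and the fifth touch each other. MYBPC2 carried 4, at 35 to 255, 582 to 759, 1389 to 1540 and 2913 to 3056 of ENSSSCT00000003575. Of all genes with peaks in Landrace 2, 17.7% had 4 or more and 5.50% had 6 or more. Neither gene had a peak in another library, where their levels were 1.02 to 2.70 FPKM. Among genes with 1 to 5 FPKM, 34.5% had a peak in Jinhua 1, 23.8% in Jinhua 2, 4.34% in Landrace 1 and 29.5% in Landrace 2.

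ACTA1 was the gene with peaks in the most libraries. It had a peak at 241 to 394 of ENSSSCT00000011156 in both Jinhua 1 and Jinhua 2, with the same first and last base, and in Landrace 2 peaks at 1 to 134 and at 254 to 455. The Jinhua peak and the later Landrace 2 peak shared 141 bases. Landrace 1 listed none at 50.6 FPKM, a level between those of the Jinhua animals. Of genes with 20 to 100 FPKM, 84.3% had a peak in Jinhua 1, 80.1% in Jinhua 2 and 69.0% in Landrace 1.

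MYLPF had a peak at 56 to 160 of ENSSSCT00000008547 in Jinhua 2 and at 53 to 208 in Landrace 2, so that the shorter lay within the longer. TNNC2 went against the order of the levels. It had a peak at 101 to 200 of ENSSSCT00000008127 in Jinhua 2, at 28.2 FPKM, and none in Landrace 2, at 493.8 FPKM, where 78.9% of genes with 100 to 1000 FPKM had a peak. That peak was 100 bases wide, the shortest width in any of the lists.

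Over all 6 genes, 2 of the 3 Jinhua 2 peaks and the single Jinhua 1 peak overlapped a Landrace 2 peak by at least 1 base. In the other direction 2 of the 21 Landrace 2 peaks overlapped a Jinhua 2 peak and 1 a Jinhua 1 peak. The lists differ in length, and these counts are bounded by the few peaks of the Jinhua libraries.

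**Figure D5:**
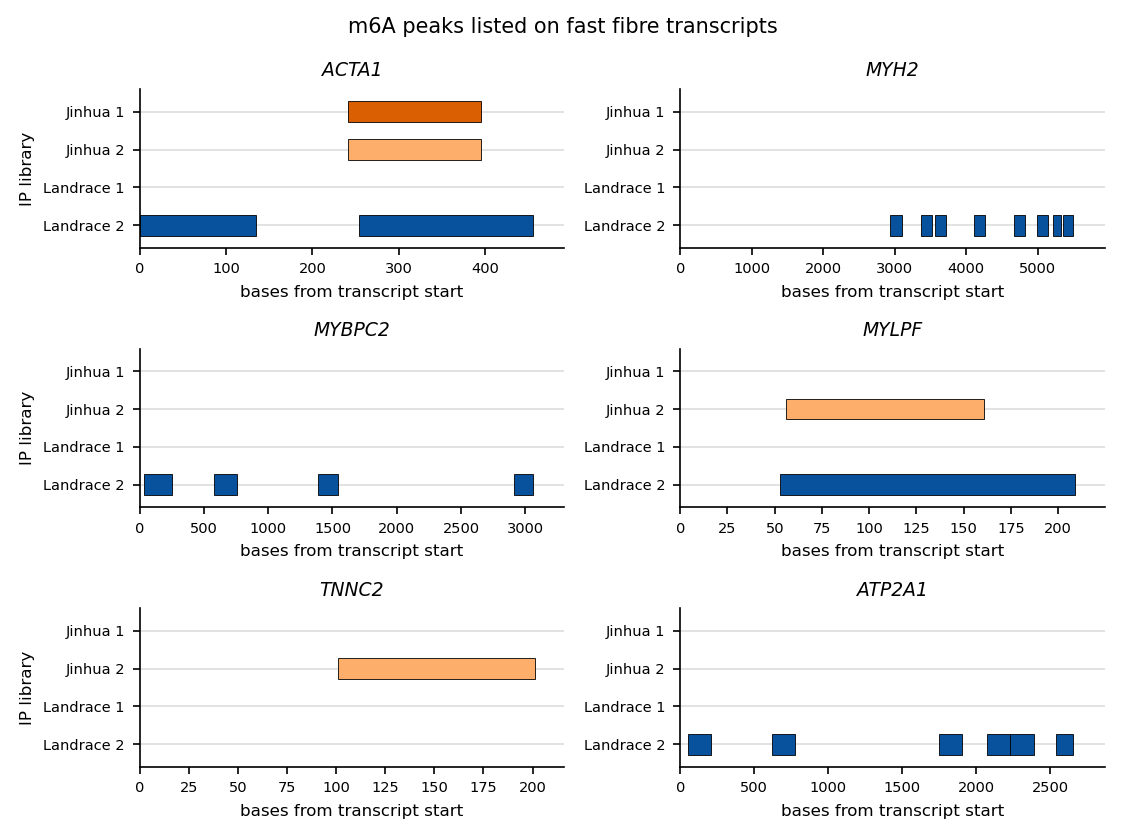
Peaks listed on the transcript of each gene, by IP library, as bars over the distance in bases from the transcript start, with each axis ending just past the last listed peak and not at the transcript end. Landrace 2 holds 21 of the 25 peaks, ACTA1 has the same peak in both Jinhua animals, and TNNC2 has its only peak in Jinhua 2.

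Genes of the other muscle lists had peaks in more genes in Landrace 2 than in any other list. Of 8 other fast fibre genes 1 had a peak in Jinhua 1, 1 in Jinhua 2, 0 in Landrace 1 and 7 in Landrace 2 (29 peaks, 13 of them on RYR1, the calcium release channel). Of 7 slow fibre genes 0 had a peak in the Jinhua and Landrace 1 lists and 7 in Landrace 2 (16 peaks). Of 15 sarcomere genes of both fibre types 3 had a peak in Jinhua 1, 2 in Jinhua 2, 1 in Landrace 1 and 10 in Landrace 2. Of 11 genes of glycogen breakdown and glycolysis 7, 7, 6 and 10 had one, in the same order. Adipocyte markers had peaks in every list, in 11 of 12 genes in Jinhua 1, 9 in Jinhua 2, 9 in Landrace 1 and 12 in Landrace 2.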

How the data were processed

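Adipose tissue of 4 pigs gave 4 input and 4 IP libraries. The deposited expression table was read as FPKM made by the authors: it does not name the unit, and per the file headers its gene column has the name Cufflinks writes. Per the submitters' processing notes TopHat2 2.0.14, Sscrofa10.2 and susScr3 were named, with no role. Per the labels' protocols a stranded kit was used. The quantifier, annotation, peak caller, thresholds and any use of strand in the values are not given in the sources used here. Peak lists deposited by the authors, 1 per IP library, hold positions on transcripts only. A further 4 expression columns and 4 peak lists match no sample described here and were not used.

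Symbols came from the peak lists used (7626 IDs) or the name table (5367), and 9683 IDs had none. The 6 genes and all lists were chosen with earlier results of these data known. Named are the 6 genes, slow partners, from each list the 3 genes of highest mean level and the 10 nearest profiles. Chosen after their values were seen were RYR1, for its peaks, MYF5 and NPPB, for their zeros, and PVALB, MYLK2, LDB3, CSRP3, MYOT, NEB, LMOD2 and TRDN, for how they passed the filter.

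Breeds were compared with limma 3.58.1 in R 4.3.3 (mean-variance trend, two-sided, no replicate block) on log2(FPKM + 1) for 13693 IDs whose FPKM averaged 1 or more. The scale understates changes of low genes. Low values of pairs of libraries showed no clear step that 1 read would leave. At most 9 genes fell in 1 of 160 bins of the value ratio, from 96 to 169 genes per pair. The fullest bin held 4.73% to 7.44% of the genes of a pair. The depth is thus unknown and no counting interval was set. The limma fit was tested on simulated data, where changes of about the size fitted for the 6 genes were not called. The simulated noise was normal, with spreads shuffled across genes. It thus differs from the 6 genes, where 1 library lies far from the others, and the outcome does not carry over to them. The labels name 2 males per breed, so replicates are animals. With 2 animals against 2, an exact permutation test of 1 value gives no two-sided p under 0.333. Alternatives were other pseudocounts, filters, scalings, no trend, a replicate block, leaving out each animal, peak width and overlap.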

Additional observations from a re-analysis of the deposited data

How the results depend on the processing

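In all alternatives of the breed comparison, limma called 0 of the 6 genes (adjusted p 0.292 to 0.974). Of 71 values of single genes under an alternative 67 kept their sign. The 4 that turned did so without Landrace replicate 2: ACTA1 0.061, MYBPC2 0.48, MYLPF 1.07 and TNNC2 1.04 (log2). The blocks, the fit without the trend and the fit without a filter cannot change a log2 difference. The signs kept there were fixed beforehand and show no stability. Without Landrace replicate 1 the differences were -4.81 for ACTA1, -3.06 for MYBPC2, -5.16 for MYLPF and -4.38 for TNNC2. Leaving out each animal in turn gave medians over the 6 genes between -4.19 and 0.27. With a mean FPKM of at least 5, MYH2 was not tested. Over all genes limma called 5. The count was 7 with a pseudocount of 0.1, 6 with a mean FPKM of at least 5, 5 with quantile normalization, 3 with no filter on low values, and 0 with median-ratio scaling, with the replicate block, without the trend, with a crossed block (chosen after seeing the data) and without any 1 animal (0 to 0). The cause of these lower counts was not tested. Deviations of animals with the same number tended to run in opposite directions across genes (r = -0.384). The cause was not tested, and the value does not settle whether the numbers pair the animals. The replicate block changed no call among the 6 genes. The median ratio of Landrace 2 to the next library was 16.6, and 16.6 to 22.1 without any 1 of the other animals. With a pseudocount of 1 that of MYH2 was 5.28. With a mean FPKM of at least 5, a filter chosen after seeing the data, the genes at least 5 times the next library numbered 56 in Jinhua 1, 5 in Jinhua 2, 56 in Landrace 1 and 40 in Landrace 2, against 72, 13, 89 and 80. Peaks of at least 100 bases were all peaks. A width of at least 150 bases was chosen after seeing the data. With it Jinhua 2 kept 1 of 3 peaks, in 1 gene, and Landrace 2 kept 16 of 21, in 5 genes. An overlap of 50% of the shorter peak changed no count.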
